A study of Homo sapiens with 6 samples.

Results

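Heat shock proteins and their partner chaperones were examined in HCT116, an established human colorectal carcinoma line of epithelial morphology, with and without lowered MTA1. The members are protein-coding genes chosen by symbol: the HSPA (HSP70), HSPB (small heat shock protein), HSP90, DNAJA, DNAJB, DNAJC (J-domain) and BAG families, the CCT subunits with TCP1, and HSPD1, HSPE1, HSPH1, STIP1, AHSA1, HSF1 and HSF2. The rule used names only and found 87 of the 36651 genes in the deposited table. Of these, 75 reached a mean of 1 FPKM (fragments per kilobase of gene scaled to the mapped fragments of the library) over the 6 libraries and were tested among 12141 genes. The other 12 stayed under that level.

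The control group holds 3 libraries whose descriptions read Ctrl and whose titles read WT. The siMTA1 group holds 3 libraries whose descriptions and design text name siMTA or siMTA1 and whose titles read CrMTA1, a term that the labels leave unexplained. Both groups are the same line, and no agent, dose, time or clone is given. MTA1 is a subunit of the NuRD complex, which remodels nucleosomes and deacetylates histones. MTA1 itself stood at 65.90, 67.61 and 66.74 FPKM in the control libraries and at 44.55, 43.98 and 47.97 FPKM in the siMTA1 libraries, so the targeted transcript was reduced and not absent (log2 difference −0.54, limma adjusted p = 0.000376). By permuting the 6 values exactly, 2-sided, p = 0.1, which is as low as groups of 3 can reach. Nothing says that the replicates were separate cultures, so p-values measure the spread between these libraries, which may be technical.

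The steps of the lowest FPKM values implied 42900000 to 66700000 fragments per library. Across genes, which are not independent replicates, r was 0.994 to 0.997 within a group and 0.988 to 0.992 between groups. Of 8 epithelial markers, 6 were expressed, with CDH17 and VIL1 at or under 0.06 FPKM in every library. The 8 epithelial markers summed to between 6592 and 6912 FPKM in control and between 5696 and 6343 FPKM with siMTA1. Most of this sum is KRT8, KRT18 and KRT19, whereas CDH1 stood at 27.98 to 29.13 FPKM in control and higher, at 33.75 to 35.31 FPKM, with siMTA1. The 8 markers of leukocytes, endothelium, fibroblasts and erythroid cells that were found summed to 2.38 to 2.56 FPKM and 2.69 to 3.27 FPKM, most of it COL1A1.

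Chaperones bind unfolded or unstable proteins and help them fold, assemble or be degraded. HSP70 proteins cycle on and off their clients under the control of J-domain proteins, which start ATP hydrolysis, and of nucleotide exchange factors, which end the cycle. HSP90 acts later, on nearly folded clients such as kinases and steroid receptors. The ring-shaped chaperonin TRiC encloses actin and tubulin, among others. HSF1 is the transcription factor that induces the cytosolic heat shock genes under stress, whereas chaperones of the endoplasmic reticulum (ER) are induced through the unfolded protein response. Many carcinoma lines express cytosolic chaperones at a high level without heat.

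Chaperone transcripts were abundant, and a few of them carried most of the total. The 87 members made up 2.14%, 2.10% and 1.98% of all FPKM in the control libraries and 1.92%, 1.94% and 1.86% in the siMTA1 libraries. The siMTA1 libraries are all below the control libraries. In bulk RNA, fewer cells with a transcript and less of it per cell cannot be told apart. HSP90AA1, HSP90AB1, HSP90B1 and HSPA8 together held 46.4% of the members' FPKM, and 20 members had a mean of at least 100 FPKM. DNAJB7 and HSPB7 were listed at 0 in all 6 libraries, and 8 members, these among them, stayed under 0.15 FPKM in every library. Among those 8 was HSPA6, a strictly heat-induced HSP70, which did not exceed 0.04 FPKM.

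**Figure D1:**
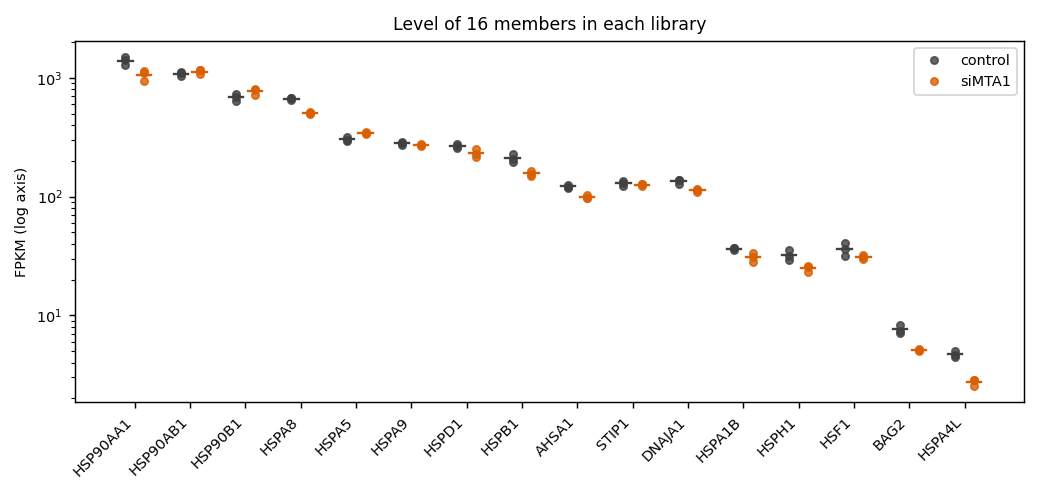
FPKM of 16 members (log axis) in each of the 3 control (grey) and 3 siMTA1 (orange) libraries. Each point is 1 library and each bar the mean of a group. All siMTA1 points of HSP90AA1, HSPA8 and HSPB1 lie below the control points, whereas those of HSPA5 lie above and the groups of HSP90AB1, HSPA9 and STIP1 overlap.

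With siMTA1, 13 of the 75 tested members fell and 3 rose (limma, adjusted p under 0.05), whereas 59 were not called. That is 21.3% of members against 18.2% of all tested genes, or 17.3% lower and 4% higher against 12.1% and 6.13%. The total is near that of all genes, so the members are described by which of them changed. The 13 were HSPA8, HSPA1B, HSPA4L, HSPH1, HSP90AA1, AHSA1, HSPB1, DNAJA1, DNAJA3, DNAJA4, BAG2, CCT6A and TCP1, and the 3 were HSPA5, DNAJB2 and DNAJC1. The median log2 difference of the members was −0.11, against −0.05 over all tested genes. Control and siMTA1 libraries were fully separated in 37 members, 30 of them lower, where 39.1% of all tested genes were without overlap, 25.9% lower and 13.2% higher.

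The balance of directions depended on the scaling of the libraries. It was 9 lower and 4 higher with quantile normalization, 8 and 5 with upper-quartile scaling, and 8 and 5 with median centring, which was chosen after the data were seen. All tested genes shifted likewise, from 12.1% lower and 6.13% higher to 6.61% and 9.29% with median centring. The count of lower members was 8 without control library 2, siMTA1 library 2 or siMTA1 library 3. The count of higher members was 0 without control library 2 (6 at an unadjusted limma p under 0.05) and 1 without control library 3 or any 1 siMTA1 library. The calls of HSPA8, HSPA4L, HSPH1, HSP90AA1, AHSA1, HSPB1 and BAG2 held in all 6 fits that left out 1 library.

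**Figure D2:**
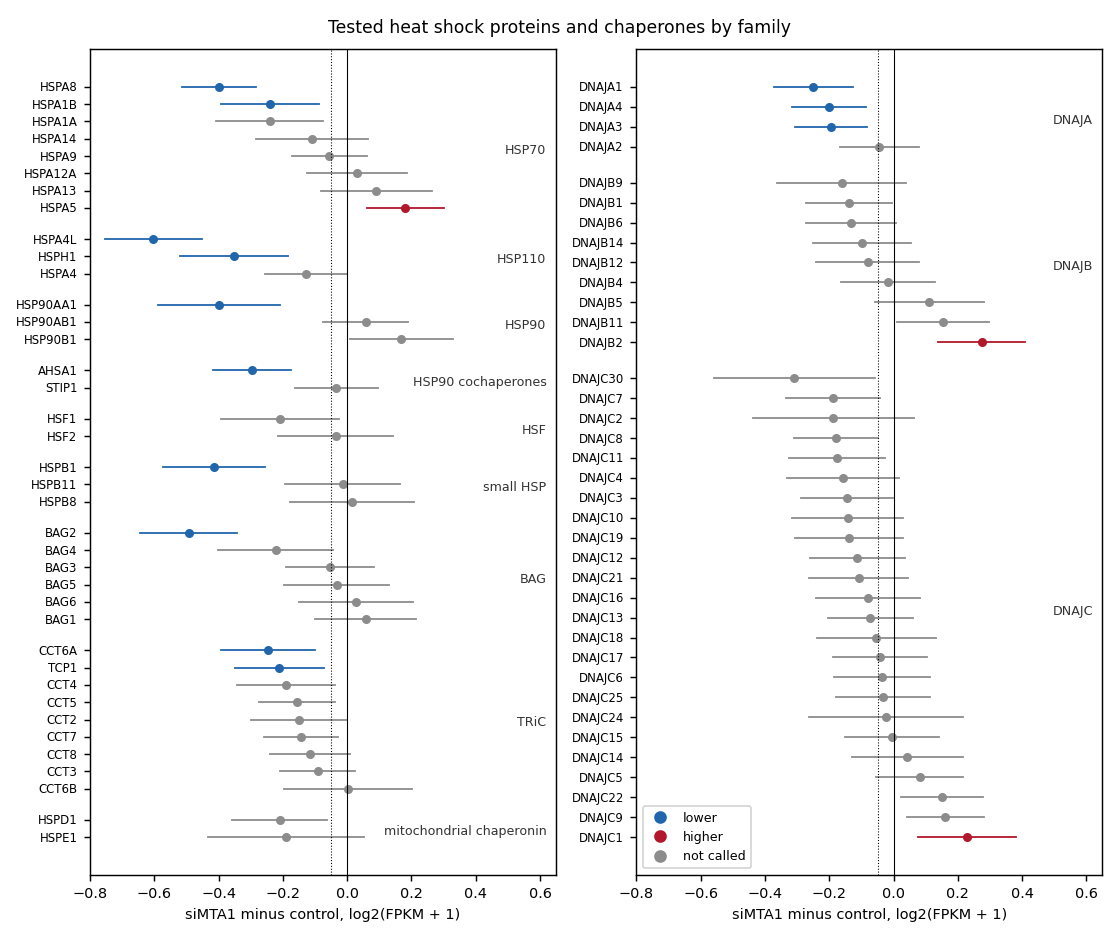
Difference between siMTA1 and control on the log2(FPKM + 1) scale for the 75 tested members, grouped by family. Points are limma estimates, bars are 95% confidence intervals, blue and red mark members called lower and higher at an adjusted p under 0.05, and the dotted line is the median of all tested genes at −0.05. HSPA4L at −0.60 is the lowest member and DNAJB2 at 0.27 the highest.

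HSF1 and HSF2, the transcription factors of the heat shock response, were not called. HSF1 stood at 31.91, 35.91 and 40.49 FPKM in control and at 31.26, 29.59 and 32.06 FPKM with siMTA1. The third siMTA1 library lies just above the first control library, so the groups overlap. The log2 difference was −0.21 (95% confidence interval −0.39 to −0.03, limma adjusted p = 0.102). It passed without control library 1 (adjusted p = 0.0253) and with array weights (adjusted p = 0.0184). HSF2 differed by −0.04 (interval −0.21 to 0.14).

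HSF1 binds heat shock elements, runs of the unit GAA in alternating orientation. The 250 bases before each RefSeq gene start (GRCh38.p14) were searched on both strands for 2-unit motifs, GAANNTTC and TTCNNGAA, and for a 3-unit motif, GAANNTTC continued by NNGAA. Each 3-unit match therefore contains both 2-unit motifs. Of the 87 members, 77 matched the promoter table, with 103 windows because some genes have several starts. The members without a window, which include DNAJC1 (called higher) and CCT6A (called lower), could not be searched. The 3-unit motif was in 5.83% of these windows and in 0.441% of all 35116 windows. The motif GAANNTTC was in 18.4% of member windows and 5.78% of all windows, and TTCNNGAA in 10.7% and 6.62%. The 6 members with 3 units were HSPA8 and HSP90AA1, which fell, HSP90AB1, HSPD1 and DNAJB6, which were not called, and HSPA6, which was under the filter. The pair GAANNTTC lay before 8 members that fell (BAG2, DNAJA1, DNAJA4, HSP90AA1, HSPA1B, HSPA8, HSPB1 and TCP1), 0 that rose, 7 that were not called and 4 under the filter, where 12.1% of all tested genes fell. The pair TTCNNGAA lay before 3 that fell, 0 that rose, 6 that were not called and 2 under the filter. The 3-unit sites are printed because members with and without a change carry the same motif. The 2-unit sites printed are only those of HSPB1 and HSPA1B, which both fell. Their letters, GAAGGTTC and GAATATTC, also lie before DNAJB1 and HSPA1A respectively, which were not called and are not printed. In HSP90AA1 and HSP90AB1 the motif lies before a start inside the gene, and the windows of their other starts hold no match. For HSP90AB1 these are chr6:44245944-44246193 and chr6:44246851-44247100, nearer the listed gene start. For HSP90AA1 it is chr14:102139750-102139999, and for HSPD1 it is chr2:197500275-197500524. Capitals mark the match to the motif, 30 bases are shown on the strand of the gene, and a match is a description of the letters and not of binding.
HSPA8, chr11:123062345-123062374, minus strand: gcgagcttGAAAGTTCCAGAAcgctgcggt
HSPA8, chr11:123062170-123062199, minus strand: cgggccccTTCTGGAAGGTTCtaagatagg
HSP90AA1, chr14:102087111-102087140, minus strand: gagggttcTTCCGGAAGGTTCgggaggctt
HSP90AB1, chr6:44247770-44247799, plus strand: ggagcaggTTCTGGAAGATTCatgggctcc
HSP90AB1, chr6:44247823-44247852, plus strand: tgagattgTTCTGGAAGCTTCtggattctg
HSPD1, chr2:197500061-197500090, minus strand: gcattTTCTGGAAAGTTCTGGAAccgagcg
DNAJB6, chr7:157336865-157336894, plus strand: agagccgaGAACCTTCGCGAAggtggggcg
HSPB1, 2 units, chr7:76302480-76302509, plus strand: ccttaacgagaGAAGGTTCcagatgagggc
HSPA1B, 2 units, chr6:31827622-31827651, plus strand: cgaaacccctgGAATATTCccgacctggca

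Among the HSP70 proteins, the main cytosolic form fell and the ER form rose, while the mitochondrial form was not called. HSPA8, the constitutive HSP70 of the cytosol (chromosome 11, 123057489 to 123063230, minus strand, GRCh38), stood at 677.54, 676.39 and 658.01 FPKM in control and at 505.84, 498.44 and 520.55 FPKM with siMTA1. The groups are far apart and tight within themselves, and 75.8% of the control level remained (log2 difference −0.40, SE 0.05, limma adjusted p = 0.00148). HSPA5, the ER form known as BiP, stood at 316.58, 301.83 and 292.51 FPKM in control and at 348.64, 338.05 and 345.96 FPKM with siMTA1. All siMTA1 libraries are above all control libraries (log2 difference 0.18, SE 0.05, limma adjusted p = 0.0450). The HSPA5 call ended without any 1 library except control library 1 (adjusted p = 0.0930 to 0.142), and with no filter on low values, quantile normalization or no intensity trend (adjusted p = 0.0599 to 0.138). HSPA9, or mortalin, the mitochondrial form, stood at 282 ± 7.68 and 272 ± 4.81 FPKM (SD, n = 3 each), a log2 difference of −0.06 (interval −0.17 to 0.06).

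Of the stress-inducible HSP70 genes, HSPA1B fell a little. It stood at 35.32, 37.02 and 37.27 FPKM in control and at 28.15, 33.52 and 30.84 FPKM with siMTA1, without overlap (log2 difference −0.24, SE 0.07, limma adjusted p = 0.0383). This call ended without control library 2 or 3 or siMTA1 library 1 or 3 (adjusted p = 0.0774 to 0.120) and with quantile normalization, upper-quartile scaling, median centring or no filter on low values (0.0864 to 0.138). Its near-identical neighbour HSPA1A was listed at only 1.33 to 1.67 FPKM in control and at 1.08 to 1.17 FPKM with siMTA1 and just missed the threshold (adjusted p = 0.0508). It passed without intensity trend (adjusted p = 0.0366), with array weights (0.00585), with the replicate number as a block (0.0444) and without control library 3 (0.0381). The sources used here do not say how fragments were divided between these copies, so their sum is given too. It was 36.88, 38.69 and 38.60 FPKM in control and at 29.29, 34.69 and 31.92 FPKM with siMTA1, 84.0% of the control level. HSPA14 (log2 difference −0.11), HSPA13 (0.09) and HSPA12A (0.03) were not called, and HSPA1L, HSPA2, HSPA6 and HSPA12B were under the filter.

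**Figure D3:**
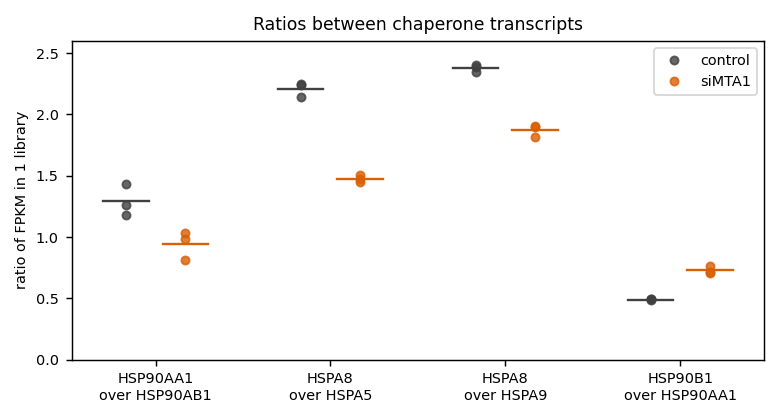
Ratio of the FPKM of pairs of chaperone transcripts, computed within each library, which no scaling of whole libraries alters. Points are the 3 control (grey) and 3 siMTA1 (orange) libraries and bars their means. HSPA8 over HSPA5 drops from 2.21 to 1.48 and HSP90AA1 over HSP90AB1 from 1.29 to 0.94, and no pair of groups overlaps. Each ratio shown holds HSPA8 or HSP90AA1, both called lower in these libraries, so the separation is no independent result.

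The nucleotide exchange factors of HSP70 included the members with the lowest log2 differences. HSPA4L, an HSP110 protein best known from testis (chromosome 4, 127781821 to 127840733, plus strand), stood at 5.02, 4.60 and 4.47 FPKM in control and at 2.86, 2.84 and 2.55 FPKM with siMTA1. No siMTA1 library came near the lowest control library, and 58.6% of the control level remained (log2 difference −0.60, SE 0.07, limma adjusted p = 0.000616). HSPH1, the heat-inducible HSP110, stood at 35.19, 31.88 and 29.46 FPKM in control and at 26.17, 25.46 and 23.25 FPKM with siMTA1. The groups did not overlap, and 77.6% of the control level remained (log2 difference −0.35, SE 0.07, adjusted p = 0.0130). That call ended once low genes were kept in the test (adjusted p = 0.0828). HSPA4, the most abundant of the 3, stood at 84.56 to 92.61 FPKM in control and at 79.32 to 83.72 FPKM with siMTA1, also without overlap, but was not called (log2 difference −0.13, adjusted p = 0.144).

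BAG proteins are exchange factors that join HSP70 to other machinery. BAG2, which inhibits the HSP70-bound ubiquitin ligase CHIP, stood at 8.34, 7.41 and 7.05 FPKM in control and at 5.04, 5.20 and 5.06 FPKM with siMTA1. The siMTA1 libraries are nearly equal to one another and all below control (log2 difference −0.49, SE 0.07, limma adjusted p = 0.00202). It was the 1 called gene among 6 BAG members, or 16.7%, near the 18.2% of all tested genes that were called. BAG3, the most abundant and itself heat-inducible, stood at 82.82, 91.97 and 93.43 FPKM in control and at 84.25, 86.00 and 87.76 FPKM with siMTA1, within the control range. Its log2 difference was −0.05 (interval −0.19 to 0.08). BAG4 (−0.22, adjusted p = 0.0812), BAG5 (−0.03), BAG6 (0.03) and BAG1 (0.06) were not called.

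J-domain proteins deliver clients to HSP70, and most of them were not called. Of the 4 DNAJA genes, the class closest to the bacterial DnaJ, 3 fell, against 12.1% of all tested genes. DNAJA1, a cytosolic partner of HSPA8, stood at 137.38, 138.36 and 128.44 FPKM in control and at 115.25, 109.91 and 114.21 FPKM with siMTA1 (log2 difference −0.25, SE 0.05, limma adjusted p = 0.0148). The groups were well separated. DNAJA3, the mitochondrial partner of HSPA9, stood at 34.01, 33.85 and 33.99 FPKM and at 30.04, 29.45 and 29.11 FPKM (adjusted p = 0.0270). DNAJA4 stood at 14.89 to 15.22 FPKM and at 12.83 to 13.14 FPKM (adjusted p = 0.0269). Both had very little spread and a log2 difference of −0.20. DNAJA2 was not called (−0.04, interval −0.17 to 0.08). The DNAJA1 call ended without control library 2 or siMTA1 library 2 (adjusted p = 0.0601 to 0.0729) and with low genes kept (0.0553), and those of DNAJA3 and DNAJA4 without any 1 library except control library 1 (0.0575 to 0.0968 and 0.0626 to 0.1). Quantile normalization, upper-quartile scaling and median centring also ended the DNAJA3 (0.0679 to 0.0856) and DNAJA4 (0.0652 to 0.0828) calls.

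Of 9 tested DNAJB genes, 1 rose and 0 fell (limma), beside 6.13% higher and 12.1% lower of all tested genes. Another 3 were under the filter. At an unadjusted limma p under 0.05, DNAJB1 was lower and DNAJB2 and DNAJB11 higher. DNAJB2, a J-domain protein with ubiquitin-interacting motifs that is best known from neurons, stood at 9.85, 10.40 and 10.95 FPKM in control and at 12.29, 12.81 and 13.23 FPKM with siMTA1. All siMTA1 libraries are above control (log2 difference 0.27, SE 0.06, limma adjusted p = 0.0150). The call ended without control library 2 or siMTA1 library 2 (adjusted p = 0.0510 to 0.0581) and with no filter on low values (0.0574). DNAJB1, the classic heat-inducible HSP40, stood at 76.75, 78.84 and 78.63 FPKM in control and at 66.74, 70.32 and 75.72 FPKM with siMTA1. The groups did not overlap, but the gene was not called (log2 difference −0.14, interval −0.27 to −0.01, adjusted p = 0.130). DNAJB11, the partner of HSPA5 in the ER, stood at 81.63, 83.00 and 72.12 FPKM and at 89.43, 86.07 and 87.65 FPKM, again without overlap and not called (0.15, adjusted p = 0.121). DNAJB9, another ER partner, had the lowest difference of the class (−0.16, adjusted p = 0.230).

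The DNAJC class, which shares only the J domain, had 1 called gene among 24 tested, or 4.17%, beside 18.2% of all tested genes. Without overlap between groups, 5 of the 24 were lower and 4 higher, beside 25.9% and 13.2% of all tested genes. At an unadjusted limma p under 0.05, DNAJC3, DNAJC7, DNAJC8, DNAJC11 and DNAJC30 were lower and DNAJC1, DNAJC9 and DNAJC22 higher. DNAJC1, an ER membrane protein, stood at 24.36, 24.39 and 22.75 FPKM in control and at 28.00, 25.97 and 30.52 FPKM with siMTA1. The groups did not overlap (log2 difference 0.23, SE 0.07, limma adjusted p = 0.0438). That call ended without any 1 library except siMTA1 library 2 (adjusted p = 0.0595 to 0.120), with no filter on low values and with no intensity trend (0.0535 to 0.147). DNAJC8, a nuclear protein found with the spliceosome and the most abundant of the class, stood at 155.61, 156.18 and 140.83 FPKM and at 135.12, 131.93 and 131.93 FPKM, without overlap but not called (−0.18, adjusted p = 0.0592). It passed without control library 3 (adjusted p = 0.0336), with a filter at a mean of 5 FPKM (0.0499), with array weights (0.00668) and with the replicate block (0.0385). DNAJC9, a histone chaperone, was the reverse, at 18.53, 19.48 and 19.18 FPKM and 21.86, 21.64 and 20.78 FPKM (0.16, adjusted p = 0.0647). It passed with quantile normalization (adjusted p = 0.0322), upper-quartile scaling (0.0330), median centring (0.0282), array weights (0.0290) and the replicate block (0.0470). DNAJC30, a small mitochondrial protein, had the lowest difference (−0.31, adjusted p = 0.0821), with overlapping groups. Its interval of −0.56 to −0.06 is among the widest of the members. The other 20 lay between −0.19 and 0.15, and DNAJC27 and DNAJC28 were under the filter.

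The HSP90 paralogs did not move together. HSP90AA1, the stress-inducible cytosolic form (chromosome 14, 102080738 to 102139699, minus strand), stood at 1496.35, 1407.31 and 1292.24 FPKM in control and at 1109.56, 1138.55 and 939.39 FPKM with siMTA1. Each control library is above each siMTA1 library, and 76.0% of the control level remained (log2 difference −0.40, SE 0.08, limma adjusted p = 0.0130). Its call ended once low genes were kept in the test (adjusted p = 0.137). HSP90AB1, the constitutive cytosolic form (chromosome 6, 44246166 to 44253888, plus strand), stood at 1044.26, 1116.10 and 1092.74 FPKM in control and at 1070.81, 1155.64 and 1160.63 FPKM with siMTA1. These groups overlap, and the log2 difference was 0.06 (interval −0.07 to 0.19, adjusted p = 0.518). The ratio of HSP90AA1 to HSP90AB1 was 1.43, 1.26 and 1.18 in the control libraries and 1.04, 0.985 and 0.809 in the siMTA1 libraries. HSP90AA1 was thus the more abundant per length in every control library, and HSP90AB1 in 2 of the 3 siMTA1 libraries. Together the pair held 2483 ± 85.3 and 2192 ± 97.6 FPKM (SD, n = 3 each).

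HSP90B1, the ER paralog known as GRP94, stood at 736.78, 685.65 and 635.46 FPKM in control and at 784.79, 809.35 and 717.62 FPKM with siMTA1. The groups overlap and it was not called (log2 difference 0.17, interval 0.01 to 0.33, limma adjusted p = 0.127), though it passed with array weights (adjusted p = 0.0270). Relative to HSP90AA1 it stood at 0.492, 0.487 and 0.492 in control and at 0.707, 0.711 and 0.764 with siMTA1. HSP90AA1 was itself called lower, so the gap between these ratios is no separate evidence of a rise in HSP90B1. AHSA1, which activates the HSP90 ATPase, stood at 124.94, 121.48 and 119.27 FPKM in control and at 96.86, 103.52 and 96.64 FPKM with siMTA1. The groups did not overlap, and 81.2% of the control level remained (−0.30, SE 0.05, adjusted p = 0.00714). STIP1, or HOP, which bridges HSP70 and HSP90, stood at 121.88 to 136.39 FPKM and 123.40 to 128.62 FPKM, with the siMTA1 libraries inside the control range (−0.03, interval −0.16 to 0.10).

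Small heat shock proteins hold unfolding proteins without ATP. HSPB1, or HSP27 (chromosome 7, 76302544 to 76304295, plus strand), was the 1 abundant member, at 193.98, 207.76 and 229.38 FPKM in control and at 150.49, 155.65 and 165.80 FPKM with siMTA1. All siMTA1 libraries are below all control libraries, and 74.8% of the control level remained (log2 difference −0.41, SE 0.07, limma adjusted p = 0.00556). That call ended once low genes were kept in the test (adjusted p = 0.0527). HSPB11 (−0.01) and HSPB8 (0.02) were not called, and HSPB2, HSPB6 and HSPB7 were under the filter.

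The subunits of TRiC stood close together. The ring is built of TCP1, CCT2, CCT3, CCT4, CCT5, CCT6A, CCT7 and CCT8, and in each of these 8 genes every siMTA1 library was below every control library, where 25.9% of all tested genes were lower without overlap. CCT6A (203.13, 192.05 and 180.02 FPKM in control, and 170.31, 152.92 and 161.06 FPKM with siMTA1) and TCP1 (139.43, 137.06 and 129.04 FPKM, and 120.74, 108.86 and 120.51 FPKM) fell, with log2 differences of −0.25 (SE 0.06, limma adjusted p = 0.0290) and −0.21 (SE 0.06, adjusted p = 0.0417). The other 6 were not called and lay between −0.19 for CCT4 and −0.09 for CCT3, the most abundant at 344.5 ± 5.59 and 323 ± 9.25 FPKM (SD, n = 3 each). The 8 subunits summed to 1536, 1518 and 1463 FPKM in control and to 1366, 1316 and 1387 FPKM with siMTA1, 90.1% of the control level. Their median of −0.15 stands beside −0.05 over all tested genes, and all 8 stayed below 0 under each of the 17 alternative settings. The calls depended on the setting: 0 subunits passed (limma) with upper-quartile scaling, median centring or no filter on low values, or without control library 1 or 2 or siMTA1 library 2 or 3, and 1 with quantile normalization, with values rescaled to TPM, without intensity trend, or without siMTA1 library 1. More passed in other settings, 3 with the replicate block, where CCT4 was added, and 5 with array weights, where CCT4, CCT5 and CCT7 were added. CCT6B, a form known from testis, stood at about 1 FPKM and was not called (0.00, interval −0.20 to 0.20).

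**Figure D4:**
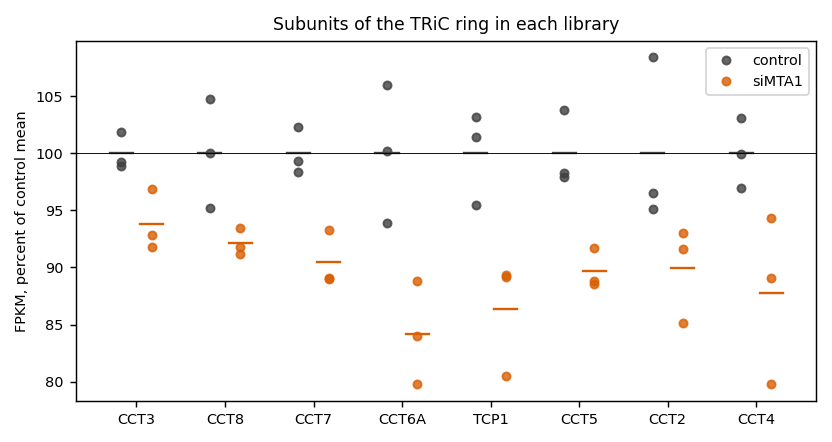
FPKM of the 8 TRiC subunits in each library as a percentage of that gene's control mean, in order of abundance. Points are libraries, bars are group means, and grey and orange mark control and siMTA1. Group means with siMTA1 lie between 84.2% for CCT6A and 93.8% for CCT3, and in each gene the 3 siMTA1 points are below the 3 control points.

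The mitochondrial chaperonin, formed by HSPD1 (HSP60) and its lid HSPE1 (HSP10), was not called. The genes lie head to head on chromosome 2 and share a promoter. HSPD1 stood at 279.68, 268.18 and 259.14 FPKM in control and at 251.33, 230.63 and 216.53 FPKM with siMTA1, without overlap and just outside the threshold (log2 difference −0.21, SE 0.07, limma adjusted p = 0.0540). It passed without siMTA1 library 1 (adjusted p = 0.0352), with a filter at a mean of 5 FPKM (0.0407), with array weights (0.0187) and with the replicate block (0.0227). HSPE1 stood at 203.12, 164.91 and 153.09 FPKM and at 148.61, 169.90 and 136.43 FPKM, with overlap (−0.19, interval −0.43 to 0.05). The readthrough gene HSPE1-MOB4, which shares HSPE1 exons, is listed at 16.78 to 24.10 FPKM. Of the 8 tested members that work in mitochondria, DNAJA3 was the 1 called, or 12.5%, near the 12.1% of all tested genes that fell. Their median difference was −0.18, against −0.05 over all tested genes.

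Grouped by how they are induced, 8 of 15 tested members of a textbook list of HSF1 targets fell and 0 rose (limma; 0 rose at an unadjusted p under 0.05 as well), with a median log2 difference of −0.24. All tested genes gave 12.1% lower, 6.13% higher and a median of −0.05. The list holds heat-inducible genes and also HSPA8 and HSP90AB1, which are expressed without stress. The 8 were HSPA8, HSPA1B, HSPA4L, HSPH1, HSP90AA1, HSPB1, DNAJA1 and AHSA1, and the 7 others included BAG3, DNAJB1, STIP1 and HSP90AB1, which was the 1 of them above 0. Over the alternative settings between 3 and 11 of them fell and 0 rose, with 3 where no filter on low values was used and 6 without control library 2. This grouping was made with earlier results of these data known and supports no direction by itself.

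A list of 8 members that work in the ER had a median difference above 0. The list is not complete, so its median depends on which members it holds. It leaves out DNAJB12 (−0.08), DNAJB14 (−0.10), DNAJC16 (−0.08), DNAJC18 (−0.05), DNAJC25 (−0.03) and DNAJC14 (0.04), J-domain members also placed in the ER and not called. Of the 8, 2 rose (HSPA5 and DNAJC1) and 0 fell by limma, beside 6.13% higher and 12.1% lower of all tested genes. At an unadjusted limma p under 0.05, 1 of the 8, DNAJC3, was lower. Their median was 0.12, with 5 above 0 and 3 below. The count was 0 without control library 2 or 3 or siMTA1 library 1 or 3, also 0 with no filter on low values or no intensity trend, and 1 without control library 1 or siMTA1 library 2 or with quantile normalization, while the median stayed above 0 in all 17 alternatives. HSPA5 and HSP90B1 were the 2 members whose windows held the ER stress element, CCAAT and CCACG with 9 bases between them, found on either strand in 0.074% of all 35116 windows. It is bound by NF-Y and by the unfolded-protein-response factor ATF6. DNAJC1 had no window to search. The matches are shown in capitals on the strand of the gene, and the second one of HSP90B1 is in reverse orientation.
HSPA5, chr9:125241385-125241414, minus strand: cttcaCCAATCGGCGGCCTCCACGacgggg
HSP90B1, chr12:103930211-103930240, plus strand: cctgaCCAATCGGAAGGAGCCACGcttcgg
HSP90B1, chr12:103930316-103930345, plus strand: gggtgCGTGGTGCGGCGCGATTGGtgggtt
The 250 bases before the start of HSPA5, chr9:125241344-125241593 on the minus strand (GRCh38.p14), overlap no exon of GENCODE 29 and are printed whole to show the element near the start.
HSPA5 promoter: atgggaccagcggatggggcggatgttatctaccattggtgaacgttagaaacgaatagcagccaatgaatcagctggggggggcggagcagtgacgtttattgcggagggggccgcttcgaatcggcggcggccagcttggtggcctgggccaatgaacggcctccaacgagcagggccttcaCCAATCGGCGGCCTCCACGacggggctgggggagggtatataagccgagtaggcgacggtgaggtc

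Outside the named families, the ER folding machinery also rose in part, with 3 of 10 genes called higher and 0 lower, beside 6.13% higher of all tested genes (limma; 0 lower and 6 higher at an unadjusted p under 0.05). CANX, the lectin chaperone calnexin, stood at 99.4 ± 1.70 FPKM in control and at 140 ± 5.20 FPKM with siMTA1 (mean ± SD of 3 libraries, log2 difference 0.49, limma adjusted p = 0.000525). P4HB, a protein disulfide isomerase, stood at 346 ± 13.4 and 430 ± 12.1 FPKM (0.31, adjusted p = 0.00643). HYOU1, the ER exchange factor for HSPA5, stood at 49.1 ± 4.40 and 66.4 ± 4.21 FPKM (0.43, adjusted p = 0.00647), a call that ended once low genes were kept in the test (adjusted p = 0.0586). CALR, the most abundant at 706 ± 56.0 and 769 ± 21.5 FPKM, was not called (0.13, adjusted p = 0.216). SDF2L1 was the 1 of the 10 with a difference below 0 (−0.11). The count called higher was 2 with no filter on low values, 5 with quantile normalization or upper-quartile scaling, and 6 with median centring, array weights or the replicate block. With array weights SDF2L1 was called lower. HYOU1 was also the 1 called gene of 5 HSP70 exchange factors and regulators outside the rule, of which SIL1, GRPEL1, GRPEL2 and HSPBP1 were not called.

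Among 14 tested HSP90 cochaperones outside the rule, 2 fell and 1 rose, or 14.3% and 7.14%, near the 12.1% and 6.13% of all tested genes. FKBP5, a prolyl isomerase of steroid receptor complexes that glucocorticoids induce, stood at 4.65 ± 0.0321 and 7.23 ± 0.137 FPKM (SD, n = 3 each, log2 difference 0.54, limma adjusted p = 0.000364). Its relative FKBP4 stood at 63.9 ± 3.12 and 53.5 ± 1.58 FPKM (−0.25, adjusted p = 0.0176), and CACYBP at 47.5 ± 4.23 and 38.7 ± 2.28 FPKM (−0.29, adjusted p = 0.0279). The FKBP4 call ended without control library 2 or siMTA1 library 1 or 2 (adjusted p = 0.0502 to 0.0789) and the CACYBP call without control library 1 or 2 or siMTA1 library 2 or 3 (0.0645 to 0.0903), and each with no filter on low values (0.0619 and 0.128). Upper-quartile scaling and median centring also ended the CACYBP call (adjusted p = 0.0549 and 0.0683). CDC37, the kinase cochaperone and the most abundant of the list, stood at 326 ± 5.24 and 327 ± 24.2 FPKM.

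Prefoldin, which hands actin and tubulin to TRiC, had 0 of 6 subunits called by limma (1 of 6, PFDN1, at an unadjusted p under 0.05). Its most abundant subunit, PFDN2, stood at 404 ± 23.5 and 408 ± 38.5 FPKM (SD, n = 3 each). Of 8 TRiC regulators, 1 fell, or 12.5% beside 12.1% of all tested genes. TXNDC9, a phosducin-like inhibitor, fell from 9.80 ± 1.28 to 7.42 ± 0.526 FPKM (log2 difference −0.36, limma adjusted p = 0.0231). Its call ended without control library 2 or siMTA1 library 2 or 3 (adjusted p = 0.0573 to 0.0715) and with no filter on low values or quantile normalization (0.129 and 0.0543). TBCA, a tubulin chaperone, was the most abundant at 64.2 ± 10.4 and 65.4 ± 2.93 FPKM. Of 10 mitochondrial folding and protease genes, 2 fell, or 20% beside 12.1% of all tested genes: HSCB, the J-domain protein of iron-sulfur cluster assembly (7.88 ± 0.433 and 6.28 ± 0.350 FPKM, adjusted p = 0.0157), and CLPP, a matrix protease (29.2 ± 1.87 and 24.5 ± 1.05 FPKM, adjusted p = 0.0291). The HSCB call ended without siMTA1 library 2 (adjusted p = 0.0604) and with no filter on low values (0.0693). The CLPP call ended without control library 3 or any 1 siMTA1 library (0.0507 to 0.104), with no filter on low values, and with quantile, upper-quartile or median scaling (0.0515 to 0.101). TRAP1, the mitochondrial HSP90, stood at 121 ± 7.48 and 114 ± 6.76 FPKM and was not called (−0.10, adjusted p = 0.337). UBB, a stress-responsive ubiquitin gene, stood at 484 ± 19.0 and 494 ± 53.1 FPKM and was not called (0.03, adjusted p = 0.846).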

How the data were processed

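PolyA-selected RNA of 3 control and 3 siMTA1 samples was sequenced as directional paired-end libraries, per the labels' protocols. The authors deposited 1 table of FPKM with 2 decimals. The submitters' processing notes name cutadapt, TopHat2, edgeR and GRCh38. The counting of fragments, any use of strand and the annotation release are not stated there. Near-identical copies, readthrough genes and overlapping genes could have shared or split fragments.

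Genes reaching 1 FPKM on average over the 6 libraries were compared with limma 3.58.1 in R 4.3.3 on log2(FPKM + 1), 2-sided, with an intensity trend and no covariate. P-values were adjusted over all 12141 genes (Benjamini-Hochberg), and an adjusted p under 0.05 is a call. A positive difference means higher with siMTA1, and the pseudocount of 1 understates changes of low genes. Implied depth is the number of fragments at which the count of genes shorter than 150 bases in GENCODE 29 that equal 1 fragment within 0.04 is largest. That count was a minority of such genes above 0, as with 177 of 446 in control library 2 and 141 of 450 in siMTA1 library 2.

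The members and all lists were chosen with earlier results of these data known. Named are the called members, the highest, most raised and most lowered of each family, HSF1, HSF2, called genes of related lists and each list's most abundant gene. Genes named beside these were chosen after their values were seen. Gene coordinates are from GENCODE 29 (GRCh38) and promoter sequences from RefSeq (GRCh38.p14). The test was tried on simulated data. Alternatives were other pseudocounts, filters, scalings and limma settings, a replicate block, and each library left out. Python 3.11.15, pandas 2.3.3 and matplotlib 3.10.9 made tables and figures. A gene of a related list is not reported here.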

Additional observations from a re-analysis of the deposited data

How the results depend on the processing

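The count of members called lower, 13, was 6 with no filter on low values, 8 with upper-quartile scaling, 8 with median centring (added after the data were seen), 25 with array weights and 20 with the replicate block. It ran from 8 to 13 over the fits that left out 1 library. The count called higher, 3, was 0 with no filter (7 at an unadjusted limma p under 0.05), 5 with upper-quartile scaling, 5 with median centring, 5 with array weights and 1 without intensity trend, and ran from 0 to 2 with a library left out. With no filter, 33126 genes entered the adjustment and 379 were called lower and 297 higher. Of the 16 member calls, 11 were shared with quantile normalization, upper-quartile scaling or median centring, 16 with either pseudocount, and 4 (HSPA8, HSPA4L, AHSA1 and BAG2) held in every setting in which the gene was tested; HSPA4L was not tested with a filter at 5 FPKM. The MTA1 difference lay between −0.58 and −0.49 and stayed called. Same-numbered libraries deviated together with r of 0.331, 0.0219 and 0.219, and differently numbered ones with r of −0.277 to 0.0712. These values do not settle whether the numbers pair the libraries, and the main fit did not pair them. With the replicate block 4 members were higher, 2039 genes were called lower and 992 higher, against 1463 and 744 without it. Control library 2 correlated best with siMTA1 library 3. No count of fragments per gene was used, so the error of low values rests on the spread of 3 libraries.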

Other observations

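Rows that fit the symbol patterns without being protein coding were few in fragments. Of these 23 rows, the most abundant was HSP90AA2P, a processed pseudogene of HSP90AA1, at 3.87, 3.51 and 3.22 FPKM in control and at 3.44, 3.47 and 2.14 FPKM with siMTA1. The 13 pseudogenes of HSPA8 together made up 0.0652% to 0.102% of the FPKM of parent and copies, and the 15 of HSPE1 made up 0.429% to 0.919%. DNAJC19 had the largest such share, 4.88% to 15.9%, over 3 pseudogenes.

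The readthrough gene DNAJC25-GNG10 is listed at 94.8 ± 8.13 FPKM in control and at 76.0 ± 6.81 FPKM with siMTA1 (mean ± SD of 3 libraries, limma adjusted p = 0.0272), above DNAJC25 itself at 14.7 ± 0.982 and 14.3 ± 0.708 FPKM, which was not called. How fragments were divided between the 2 entries was not tested.

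The ratio of HSPD1 to HSPE1, which share a promoter and work as partners, was 1.38, 1.63 and 1.69 in control and 1.69, 1.36 and 1.59 with siMTA1. It varied as much between libraries of a group as between groups.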
